A study of Mus musculus with 115 samples.

Results

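The cells compared here are dentate granule cells of Rbp4-Cre mice that had received kainic acid (KA) in the same hippocampus, with titles numbered 1 to 48. The 24 EGFP+ cells carried EGFP from a retrograde AAV injected into the opposite hippocampus, and the 21 EGFP- cells carried none. All 45 came from the table of cells kept by the authors' quality control (QC), which holds 95 cells of the series. Both classes shared the Rbp4-Cre background, the KA injection, the Cre-dependent mCherry AAV given with it and sampling 2 weeks later, whether or not a cell showed mCherry. Rbp4-Cre drives mCherry and not EGFP, so EGFP is taken to mark uptake of the virus by an axon on the other side. Whether virus reached a cell in another way was not tested. A commissural cell that took up no virus would be counted as EGFP-. The class rests on the labels alone, since no EGFP transcript was analysed here.

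Granule cells are the principal excitatory neurons of the dentate gyrus, and their mossy fibres normally stay in the hippocampus of their own side, whereas the commissural projection of the dentate gyrus comes mainly from mossy cells of the hilus. Axons that cross the midline are steered by Slit and netrin cues through receptors of the Robo, DCC and Unc5 families, and Robo3 is the divergent Robo receptor that commissural axons of the hindbrain and spinal cord need to cross. KA, an agonist of ionotropic glutamate receptors, causes seizures and is followed in granule cells by induction of immediate early genes and neuropeptides, and in the tissue by activation of microglia and astrocytes.

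Each library is the content drawn from 1 cell through a patch pipette, counted in reads per gene. No label names the mouse of a cell, and the study states 9 mice for its KA EGFP+ cells and 3 for its KA EGFP- cells. Each class is therefore a single sample of unknown mice. Differences are given as EGFP+ minus EGFP- of the mean log2(CPM+1), where CPM is counts per 1000000 in the cell, with the SD over cells and without any test. Title numbers are tied to class: 19 EGFP+ cells hold titles 1 to 19, where no EGFP- cell lies, and 5 EGFP+ cells (titles 21, 23, 27, 38 and 45) lie among the EGFP- cells of titles 20 to 48. Differences are therefore also given for each set of EGFP+ cells, and both of these use the same 21 EGFP- cells. In titles 1 to 48 the effect of class and that of title position cannot be told apart, and only the 5 cells allow a comparison at like titles. QC labels of titles 24, 25 and 48 did not match the table. Title 25 is absent although labelled as passed, and titles 24 and 48 are present although labelled as failed. A like shift of the class labels by 1 title would alter the comparison.

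Depth was 3183844 to 8331170 counts (median 6362861) in EGFP+ cells and 2938404 to 56183007 (median 6024055) in EGFP- cells. The deepest EGFP- cell, title 33, held 26.9% of all EGFP- counts. Between 1635 and 9945 genes were detected in EGFP+ cells (median 6383), and between 3107 and 9509 in EGFP- cells (median 6974). Of the EGFP+ cells, 4 had fewer than 3000 genes (titles 9, 13, 15 and 16), against 0 of the EGFP- cells. Counts of the 18 microglia marker genes made up at least 0.1% of the library in 11 of 24 EGFP+ cells and in 1 of 21 EGFP- cells. These are called microglia-rich cells below. Of the 11, 10 hold titles 1 to 19 and the other is title 45.

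**Figure D1:**
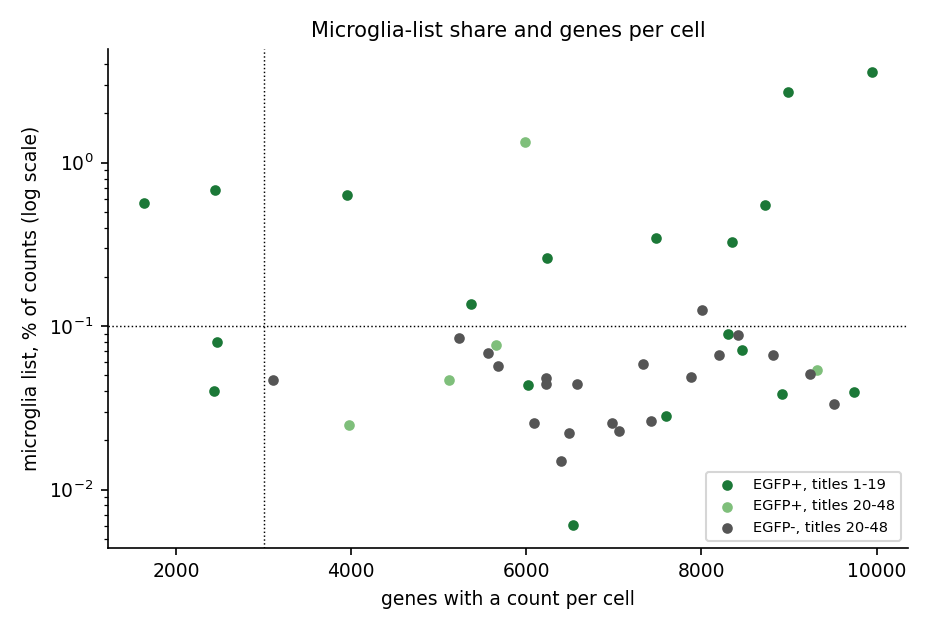
Share of counts from the 18 microglia genes (log scale, percent) against the number of genes with a count, 1 point per cell, for EGFP+ cells of titles 1-19, EGFP+ cells of titles 20-48 and EGFP- cells. Dotted lines mark 0.1% and 3000 genes; 11 EGFP+ cells and 1 EGFP- cell lie above the horizontal line, and 4 EGFP+ cells lie left of the vertical one.

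Granule cell markers had overlapping levels in both classes. Counts of the 18 granule cell markers made up 0.00237 to 0.499% of the library in EGFP+ cells (median 0.145%) and 0.0495 to 0.651% in EGFP- cells (median 0.132%). Prox1, the homeobox factor that maintains granule cell identity, had a count in 23 of 24 EGFP+ cells and 19 of 21 EGFP- cells. Its mean log2(CPM+1) was 5.96 ± 2.66 in EGFP+ cells and 6.15 ± 3.55 in EGFP- cells (SD over cells). Calb1, the calcium buffer calbindin, averaged 6.62 ± 3.73 in EGFP+ cells and 6.43 ± 3.84 in EGFP- cells. For titles 20 to 48 Calb1 differed by 2.35 and Prox1 by 0.88. The median difference of the 13 measured granule cell markers was -0.09 over all titles, 0.38 for titles 20 to 48, 0.63 without microglia-rich cells and 1.03 without these and cells under 3000 genes, so that its sign varied with the cells used. C1ql2, a synaptic organiser secreted at mossy fibre terminals, had a count in 11 EGFP+ and 8 EGFP- cells. Of the mossy cell markers, Calb2 (calretinin) and Drd2 (dopamine D2 receptor) had no count in any of the 45 cells. Of EGFP+ cells, 0 of 24 allows a share of cells with a count of up to 12.5%, and of EGFP- cells 0 of 21 allows up to 14.3%. These limits concern cells with a count and not cells that express the gene, and they treat cells as independent. The other 5 mossy cell genes measured had differences of -2.73 to -0.41. Marker counts of mossy cells reached at most 0.0478% of the library in EGFP+ cells and 0.0534% in EGFP- cells.

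A gene was taken as measured when it had at least 1 CPM in at least 9 of the 45 cells, which held for 10005 of 22870 genes. A gene with a count in fewer than 9 cells of 1 class could pass only with cells of the other class. The filter then partly set its direction. A difference of at least 2, a 4-fold step on the mean log2(CPM+1) scale, was reached upward by 67 genes (0.67% of those measured) and downward by 2.49% of them. Since many cells stand at 0, such a difference can reflect the share of cells without a count. It need not be a 4-fold step in pooled level: Atp6v0a1 differed by -2.67, but by -0.71 for pooled counts. The rule of at least 2 over all titles and at least 1 in the same direction in titles 20 to 48 held for 48 genes upward (0.48%) and for 2.12% downward. The median difference of all measured genes was -0.30, and 3598 of them (36.0%) lay above 0. This common offset depends on which cells enter: it was -0.15 without microglia-rich cells and 0.10 without the 4 cells under 3000 genes. The numbers of genes past 2 depend on them as well. Without microglia-rich cells 145 genes were at least 2 higher, 23 of them among the 67, and the lower genes were still more numerous. The excess of lower genes turned round in other settings. Without cells under 3000 genes 182 genes were at least 2 higher and 73 at least 2 lower, and 71 of the 73 were among those at least 2 lower over all cells. Without both sets of cells 394 were higher and 106 lower, and after the median of all measured genes was subtracted 120 were higher and 98 lower. Pooled counts also gave more higher than lower genes.

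**Figure D2:**
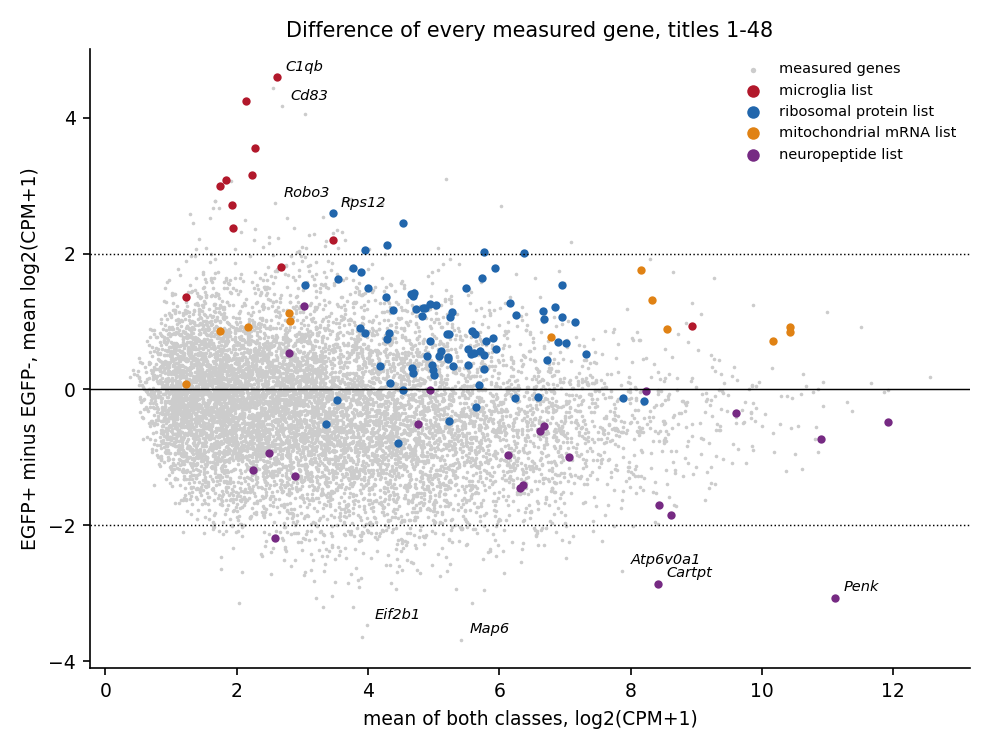
EGFP+ minus EGFP- difference of mean log2(CPM+1) against the mean of both classes for the 10005 measured genes of titles 1-48, with 4 gene lists in colour. Dotted lines mark differences of 2 and -2; 9 microglia genes and 6 ribosomal protein genes lie above the upper line, and 3 neuropeptide genes lie below the lower one.

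Robo3 was the one midline guidance gene past the threshold, and it was higher in EGFP+ cells. In EGFP+ cells its log2(CPM+1) ran from 0 to 7.97 with a median of 5.20, and 15 of 24 cells had a count. In EGFP- cells it ran from 0 to 7.15 with a median of 0, and 7 of 21 had a count. The 5 EGFP+ cells of titles 20 to 48 stood at 7.73, 4.74, 0.27, 7.74 and 5.32, so that 4 of these 5 were at 4.74 or more. The ranges of the classes overlap. With a count in 7 EGFP- cells, Robo3 could pass the filter of 9 cells only with EGFP+ cells, which partly set its direction. The mean was 3.95 ± 3.49 in EGFP+ cells and 1.21 ± 2.17 in EGFP- cells (SD over cells), a difference of 2.74. It was 2.42 for titles 1 to 19 and 3.95 for titles 20 to 48. The pooled level was 85.2 CPM (exact 95% Poisson interval 83.7 to 86.7) in EGFP+ cells and 6.76 CPM (6.42 to 7.13) in EGFP- cells, intervals that hold counting error only. After each cell was thinned to 1000000 counts, Robo3 was counted in 14 of 24 EGFP+ cells (Clopper-Pearson 95% interval 36.6 to 77.9%) and 6 of 21 EGFP- cells (11.3 to 52.2%). These intervals treat cells as independent and leave out differences between mice. Robo3 (GRCm38, chr9:37415669-37433246, minus strand) shares no exon with another annotated gene. Without microglia-rich cells the difference was 3.57, and without cells under 3000 genes 3.15.

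No other gene of this list passed the threshold. Of 20 measured midline guidance genes, 1 was at least 2 higher and 0 were at least 2 lower, where 0.67% and 2.49% of all measured genes were. Of the 20, 5 lay above 0, with a median of -0.29 that is close to that of all measured genes. Unc5a, a netrin receptor that mediates repulsion, averaged 5.75 ± 2.88 in EGFP+ cells and 4.08 ± 3.24 in EGFP- cells. It was counted in 21 EGFP+ and 14 EGFP- cells, and its difference was 1.67, or 3.63 for titles 20 to 48. Dscaml1, an adhesion molecule of the Dscam family, had a difference of 1.63. Dcc, the attractive netrin receptor, was counted in 8 EGFP+ and 11 EGFP- cells, with a difference of -1.28. Nell2, a Robo3 ligand, averaged 7.58 ± 3.05 in EGFP+ cells and 9.10 ± 0.81 in EGFP- cells, and this difference of -1.51 was 0.02 for titles 20 to 48. Robo2 differed by -0.46, and the ligand genes Slit1, Slit2 and Slit3 by -0.01, -0.18 and -1.0. Robo1 was counted in 4 EGFP+ cells and was not among the measured genes.

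Among the other genes higher in EGFP+ cells in both title ranges, Maml2 and Mut had no count in nearly all EGFP- cells. Maml2, Mut and Acp6 could pass the filter of 9 cells only with EGFP+ cells, which partly set their direction. Maml2, a transcriptional coactivator of Notch signalling and one of the granule cell markers, was counted in 11 of 24 EGFP+ cells and 1 of 21 EGFP- cells. It averaged 2.85 ± 3.22 in EGFP+ cells and 0.32 ± 1.48 in EGFP- cells. Mut, the mitochondrial methylmalonyl-CoA mutase, was counted in 13 EGFP+ cells and 1 EGFP- cell. Its difference was 2.77, with 2.43 and 4.04 for titles 1 to 19 and 20 to 48. Mut overlaps exons of Cenpq, and without strand information reads from both cannot be told apart. Acp6, a lysophosphatidic acid phosphatase, was counted in 13 EGFP+ and 7 EGFP- cells and averaged 3.37 ± 3.76 in EGFP+ cells and 0.88 ± 2.09 in EGFP- cells. Dazap2, a small proline-rich adaptor protein, was present more broadly. It was counted in 22 EGFP+ and 15 EGFP- cells and averaged 7.38 ± 2.46 in EGFP+ cells and 4.68 ± 3.42 in EGFP- cells, and its 5 EGFP+ cells of titles 20 to 48 all lay between 6.23 and 9.55. Srsf12, of the serine/arginine-rich splicing factor family, averaged 5.57 ± 3.18 in EGFP+ cells and 2.84 ± 3.37 in EGFP- cells. Without microglia-rich cells the differences of Maml2, Mut, Acp6, Dazap2 and Srsf12 were 2.33, 2.54, 2.90, 2.69 and 2.09.

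**Figure D3:**
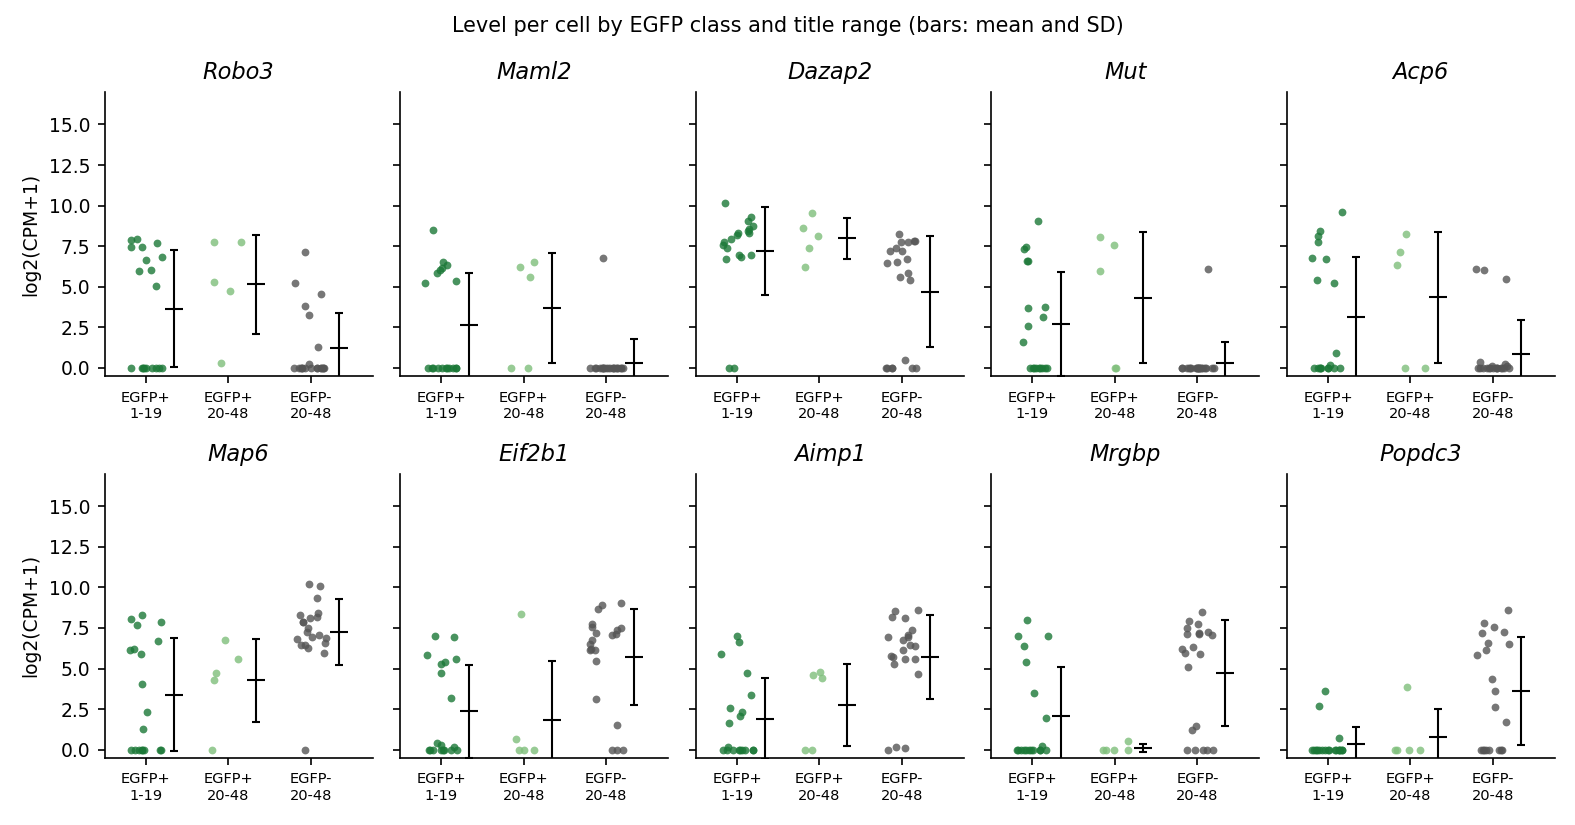
log2(CPM+1) of 10 genes in every cell, for EGFP+ cells of titles 1-19 (19 cells), EGFP+ cells of titles 20-48 (5 cells) and EGFP- cells (21 cells), with mean and SD over cells. In the upper row Robo3, Maml2, Dazap2, Mut and Acp6 have more high cells among EGFP+ cells; in the lower row Map6, Eif2b1, Aimp1, Mrgbp and Popdc3 have more high cells among EGFP- cells.

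Microglial transcripts formed the group with the highest median. Microglia, the resident macrophages of the brain, express complement C1q, the Fc receptor gamma chain and its relative Tyrobp, and lysosomal cathepsins. The filter bears on this list: of its 12 measured genes, all had at least 1 CPM in more EGFP+ than EGFP- cells, and only 2 had it in at least 9 EGFP- cells, so that the direction of most members was largely set by their passing the filter. Their median was 2.85, and 9 were at least 2 higher, where 0.67% of all measured genes were. With at least 1 CPM required in 18 cells, 3 genes remained with a median of 1.81, and the microglial genes named here, from C1qb to Laptm5, were not among them. C1qb, a chain of C1q, ran from 0 to 12.43 in EGFP+ cells with a median of 5.22 and a count in 14 of 24 cells. In EGFP- cells it ran from 0 to 6.63 with a median of 0 and a count in 2 of 21. Its mean was 4.91 ± 4.93 in EGFP+ cells and 0.32 ± 1.45 in EGFP- cells. Tyrobp, a signalling adaptor, was counted in 13 EGFP+ and 2 EGFP- cells, with a difference of 3.56. Ctss, the microglial cathepsin S, was counted in 11 EGFP+ and 2 EGFP- cells, with a difference of 4.24. Fcer1g had 3.09, Aif1, which encodes the microglial marker Iba1, 2.71, and Laptm5, a lysosomal membrane protein, 2.38. Of the defining markers that missed the filter, P2ry12 and Tmem119 were each counted in 5 EGFP+ cells and Trem2 in 8, and all 3 were at 0 in every EGFP- cell. Cx3cr1 was counted in 6 EGFP+ and 5 EGFP- cells.

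The promoters of these genes are shown because microglial genes held the highest differences, and because most windows share a short motif. RefSeq windows (GRCm38.p6) were matched for 7 of the 12 genes, and the 250 bases before the transcript start were searched on both strands for GAGGAA (reverse complement TTCCTC), a core of sites bound by the myeloid factor PU.1. The capitals mark it in 4 of them.
C1qb (chr4:136886201-136886450, minus strand): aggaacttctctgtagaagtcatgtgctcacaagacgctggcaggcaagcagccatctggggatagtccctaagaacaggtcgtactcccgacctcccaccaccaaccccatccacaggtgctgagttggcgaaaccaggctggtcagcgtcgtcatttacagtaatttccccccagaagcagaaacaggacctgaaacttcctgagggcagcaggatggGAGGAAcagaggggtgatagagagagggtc
C1qc (chr4:136892915-136893164, minus strand): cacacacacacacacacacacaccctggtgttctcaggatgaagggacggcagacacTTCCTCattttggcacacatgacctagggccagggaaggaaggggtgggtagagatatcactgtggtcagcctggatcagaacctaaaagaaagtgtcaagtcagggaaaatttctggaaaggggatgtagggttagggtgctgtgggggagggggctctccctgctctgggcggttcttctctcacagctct
Ctss (chr3:95526536-95526785, plus strand): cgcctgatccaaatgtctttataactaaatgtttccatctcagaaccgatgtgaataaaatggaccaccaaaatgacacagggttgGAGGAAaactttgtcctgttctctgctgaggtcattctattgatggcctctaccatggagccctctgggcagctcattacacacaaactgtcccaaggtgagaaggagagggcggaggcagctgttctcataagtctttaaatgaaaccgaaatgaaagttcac
Aif1 (chr17:35176053-35176302, minus strand): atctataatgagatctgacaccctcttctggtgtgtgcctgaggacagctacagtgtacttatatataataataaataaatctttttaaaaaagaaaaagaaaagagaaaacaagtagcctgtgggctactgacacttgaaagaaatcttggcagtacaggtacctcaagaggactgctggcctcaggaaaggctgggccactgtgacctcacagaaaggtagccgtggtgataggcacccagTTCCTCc
The motif occurred in 6 of the 7 windows, with Fcer1g as the exception. It occurred in 21.7% of the 7777 measured genes with a window and in 23.3% of 32851 windows in all, so a single match is common. A match describes the sequence and not binding.

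Microglia-rich cells are defined by this same list, so lower list values without them follow from the definition and are given as a description. List counts made up 0.00606 to 3.59% of the library in EGFP+ cells and 0.0151 to 0.125% in EGFP- cells. Without the 11 EGFP+ cells and 1 EGFP- cell that were rich, the list median was 0.36. The C1qb means were then 0.82 in EGFP+ cells and 0.00 in EGFP- cells. In titles 20 to 48 the list median was 1.77, and C1qb was counted there in a single EGFP+ cell, title 45, at 11.06. Without that cell the C1qb difference in titles 20 to 48 was -0.32. Fcer1g, Tyrobp, Aif1 and Laptm5 stayed higher there without title 45, at 2.39, 1.20, 1.16 and 1.16. These genes were named for differences in both title ranges, so that their sign largely follows from the choice. The lysosomal protease and membrane list had 17 of 32 measured genes above 0 and 15 below. Of the 32, 5 were at least 2 higher, where 0.67% of all measured genes were. Its median was 0.03, and 0.10 without rich cells. Single named genes outside the microglia list with a myeloid or lysosomal role, chosen for large differences, had smaller ones without these cells. Cd83, an activation marker of myeloid and lymphoid cells, was counted in 13 EGFP+ and 3 EGFP- cells, with a difference of 4.17 that was 2.16 without rich cells. Ctsz, cathepsin Z, was counted in 14 EGFP+ cells and 1 EGFP- cell, with 4.44 and 1.48, although it overlaps exons of Nelfcd. Ccl12, a chemokine, was counted in 10 EGFP+ cells at a pooled 34.3 CPM and in none of the EGFP- cells. Set against a floor of 3 counts over the whole EGFP- class, the pooled ratio is 2394. That ratio covers counting error only and is no lower bound over cells. Of EGFP- cells, 0 of 21 allows a share with a count of up to 14.3%. Its difference was 0.41 without rich cells. Grn, the lysosomal growth factor progranulin, which neurons also make, had 2.53, and 1.00 without them. The genes Cd83, Ctsz and Ccl12 could pass the filter of 9 cells only with EGFP+ cells, which partly set their direction.

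Other glial transcripts were less uniform. Of the 6 measured astrocyte genes, 3 lay above 0. Apoe, the lipid carrier made by astrocytes and activated microglia, had a difference of 3.09, which was -0.0043 without microglia-rich cells and -0.62 for titles 20 to 48. Gfap, the intermediate filament of reactive astrocytes, was counted in 15 EGFP+ and 10 EGFP- cells with a difference of 2.20, and 0.74 without rich cells. Astrocyte marker counts made up 0.00494 to 3.14% of the library in EGFP+ cells and 0.0183 to 0.154% in EGFP- cells. The difference of B2m, the light chain of MHC class I, was 2.35 and that of H2-D1, a heavy chain, 2.08, with 0.83 and 0.82 without rich cells. The other 6 measured genes of the interferon and MHC class I list lay between -1.62 and 0.92.

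**Figure D4:**
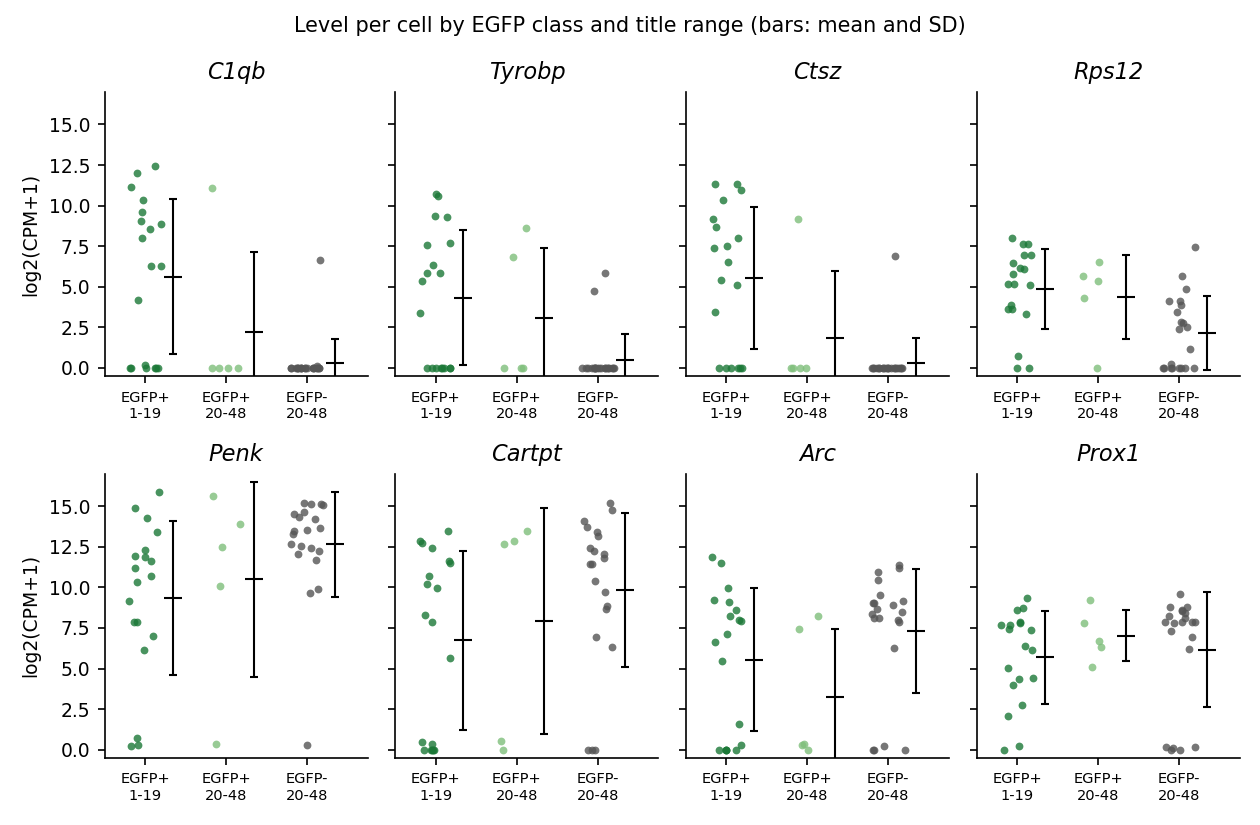
log2(CPM+1) of 8 genes in every cell for EGFP+ cells of titles 1-19, EGFP+ cells of titles 20-48 and EGFP- cells, with mean and SD over cells. C1qb, Tyrobp and Ctsz are high in part of the EGFP+ cells and at 0 in nearly all EGFP- cells; Penk, Cartpt and Arc are lower in EGFP+ cells with wide overlap.

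Transcripts of the translation machinery and of the mitochondrial genome were higher in EGFP+ cells by smaller amounts. Of 82 measured cytosolic ribosomal protein genes, 72 lay above 0 and 6 were at least 2 higher (Rps12, Rps4x, Rpl27a, Rpl22, Rpl6 and Rpl13), with a median of 0.81. Of all measured genes, 36.0% lay above 0 and 0.67% were at least 2 higher, with a median of -0.30. Rps12, of the small subunit, ran from 0 to 8.03 in EGFP+ cells with a median of 5.27, and from 0 to 7.46 in EGFP- cells with a median of 2.39. It averaged 4.76 ± 2.46 in EGFP+ cells and 2.16 ± 2.27 in EGFP- cells. Its exons overlap small RNA genes, and 61 of the ribosomal protein genes have a processed copy by name, so their counts are uncertain. Ribosomal protein counts made up 0.493 to 3.25% of the library in EGFP+ cells and 0.233 to 1.23% in EGFP- cells. The list median was 1.05 for titles 1 to 19 and 0.22 for titles 20 to 48, and 0.40 without microglia-rich cells. Medians of all measured genes in these settings were -0.30, -0.31 and -0.15. The 4 EGFP+ cells with the highest ribosomal protein shares, 3.25, 2.32, 2.16 and 1.52% in titles 12, 17, 2 and 13, were all microglia-rich. What part the microglial content has in the ribosomal values was not tested.

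All 12 measured mitochondrially encoded mRNAs lay above 0, where 36.0% of all measured genes did, with a median of 0.90 and 0 past the threshold. mt-Nd2, a subunit of respiratory complex I, averaged 8.97 ± 1.32 in EGFP+ cells and 7.66 ± 1.71 in EGFP- cells. For mt-Nd5, another complex I subunit, the range was 5.94 to 12.09 in EGFP+ cells and 0 to 10.68 in EGFP- cells, and 4 EGFP- cells had no count. The list median was 1.03 for titles 1 to 19, 0.51 for titles 20 to 48 and 0.90 without microglia-rich cells. The highest mitochondrial shares, 6.41, 3.34 and 2.89% of counts, were in titles 9, 15 and 16, which are among the EGFP+ cells under 3000 genes, and without cells under 3000 genes the median was 0.56. Nuclear genes of oxidative phosphorylation lay near the background. Of 75 measured, 20 lay above 0 and 2 were at least 2 lower, a share near the 2.49% of all measured genes. Their median was -0.39, against -0.30 for all measured genes, with 0.22 for titles 20 to 48 and 0.02 without cells under 3000 genes.

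Genes lower in EGFP+ cells outnumbered higher ones over all cells but not without cells under 3000 genes. Map6, which stabilises microtubules and binds neuronal membranes, had the largest negative difference of all measured genes. In EGFP+ cells it ran from 0 to 8.29 with a median of 4.16 and a count in 15 of 24. In EGFP- cells it ran from 0 to 10.23 with a median of 7.27 and a count in 20 of 21. Its mean was 3.58 ± 3.26 in EGFP+ cells and 7.26 ± 2.05 in EGFP- cells, a difference of -3.69 that exceeds the SD of either class. It was -3.87 for titles 1 to 19, -3.0 for titles 20 to 48, -4.51 without microglia-rich cells and -2.97 without cells under 3000 genes. The pooled level was 64.3 CPM (63.0 to 65.7) in EGFP+ cells and 335.3 CPM (332.8 to 337.7) in EGFP- cells.

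Eif2b1, a subunit of the translation initiation factor eIF2B, averaged 2.24 ± 2.96 in EGFP+ cells and 5.71 ± 2.95 in EGFP- cells. Of the 5 EGFP+ cells of titles 20 to 48, only title 45 was high, at 8.34, and the other 4 stood at 0.68 or 0. Aimp1, a scaffold of the multi-tRNA synthetase complex, averaged 2.09 ± 2.45 in EGFP+ cells and 5.73 ± 2.59 in EGFP- cells, and its 20 EGFP- cells with a count compare with 13 EGFP+ cells. Exons of Tbck overlap it. Popdc3, a cAMP-binding membrane protein of the Popeye family, was counted in 4 EGFP+ cells, none above 3.87, and in 13 EGFP- cells, up to 8.58. Popdc3 could pass the filter of 9 cells only with EGFP- cells, which partly set its direction. Mrgbp, of the NuA4 histone acetyltransferase complex, was counted in 9 EGFP+ and 16 EGFP- cells, and all 5 EGFP+ cells of titles 20 to 48 stood at or below 0.56. Further genes of this kind were Med17 of the Mediator complex (-3.20), the ubiquitin ligase Ube4a (-3.05), the selenocysteine insertion protein paralog Secisbp2l (-3.20), the ceramide pathway desaturase Degs1 (-2.85) and Armc9, a ciliary protein (-2.94). Atp6v0a1, a membrane subunit of the vesicular proton pump, was counted in every EGFP- cell at 8.12 or more and in 20 of 24 EGFP+ cells. It averaged 6.53 ± 3.63 in EGFP+ cells and 9.20 ± 0.69 in EGFP- cells, and its difference of -2.67 was -1.56 without cells under 3000 genes.

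Of 22 measured genes of the neuropeptide and secreted factor list, 20 lay below 0 and 3 were at least 2 lower, where 2.49% of all measured genes were. The list median was -0.95, against -0.30 for all measured genes, of which 36.0% lay above 0. For titles 20 to 48 it was -0.27, against -0.31 for all measured genes, and without microglia-rich cells -0.34, against -0.15. Penk, the precursor of enkephalins, had a count in all 45 cells. It ran from 0.20 to 15.88 with a median of 10.94 in EGFP+ cells, and from 0.27 to 15.19 with a median of 13.47 in EGFP- cells. The mean was 9.58 ± 4.93 in EGFP+ cells and 12.65 ± 3.25 in EGFP- cells, a difference of -3.07. The microglia-rich cells stood apart here: in EGFP+ cells Penk had a median of 7.01 over the 11 rich cells and 12.32 over the other 13, and the difference without rich cells was -0.41. In titles 20 to 48 it was -2.16, and 0.37 without title 45. Cartpt, the CART peptide precursor, was counted in 18 cells of each class and averaged 6.99 ± 5.71 in EGFP+ cells and 9.85 ± 4.75 in EGFP- cells, with -1.44 without rich cells. Its difference for titles 20 to 48 was -1.94, and 0.04 without title 45. Vegfa, an angiogenic growth factor, was counted in 7 EGFP+ and 14 EGFP- cells, with -2.19, and -2.39 without rich cells. Npy, an inhibitory peptide that granule cells make after seizures, had -0.97, with -3.31 for titles 20 to 48, and Bdnf, the neurotrophin, -0.35 with a count in all cells.

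Of 30 measured immediate early genes, 0 were at least 2 higher and 3 at least 2 lower, where 0.67% and 2.49% of all measured genes were. Their median of -0.39 is close to the -0.30 of all measured genes. Arc, whose product acts at activated synapses, ran from 0 to 11.85 in EGFP+ cells with a median of 6.89, and from 0 to 11.40 in EGFP- cells with a median of 8.50. It averaged 5.07 ± 4.38 in EGFP+ cells and 7.32 ± 3.80 in EGFP- cells, a difference of -2.25 that was -1.25 without cells under 3000 genes. For Arc it was -0.90 without these and microglia-rich cells, and -0.44 for pooled counts. Nr4a3, an orphan nuclear receptor, had -2.11 and Dusp1, a phosphatase of MAP kinases, -2.01, with -1.50 and -1.12 without cells under 3000 genes. Fos had -1.44, with -1.26 for titles 20 to 48 and 0.59 there without title 45, and Egr1, Fosb and Junb lay between -0.24 and 0.16.

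The 9 lists of growth cone, semaphorin, Eph, cadherin, synaptic adhesion, potassium channel, sodium and calcium channel, glutamate receptor and GABA receptor genes had medians of -0.87 to -0.37, against -0.30 for all measured genes, of which 2.49% were at least 2 lower. The growth cone and regeneration list held 1 gene at least 2 lower, Map6, among 36, a share near that background, with a median of -0.87. Gap43, the growth-associated protein, differed by 0.45 and was counted in 9 EGFP+ and 3 EGFP- cells. Among semaphorin, plexin and neuropilin genes, Dpysl3 (CRMP4), which transduces semaphorin signals to the cytoskeleton, had -2.41 and Sema5a -2.09. Cadherins and protocadherins held 3 of 28 genes at least 2 lower, Pcdh1, Pcdh15 and Cdh22, and Pcdh11x had -1.07. Glutamate receptors held 3 of 26, the kainate receptor subunits Grik4 (-2.25) and Grik2 (-2.10) and the presynaptic metabotropic receptor Grm7 (-2.09). Of 14 GABA receptor genes, Gabrb1 had -2.21. The potassium channel Kcnc1 had -2.54 and the AMPA receptor auxiliary subunit Cacng3 -2.29. Without the 4 cells under 3000 genes these 9 lists had medians of -0.40 to 0.14, against 0.10 for all measured genes. The virus uptake and trafficking list, whose genes could bear on labelling, had 0 of 16 genes past the threshold and a median of 0.00.

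**Figure D5:**
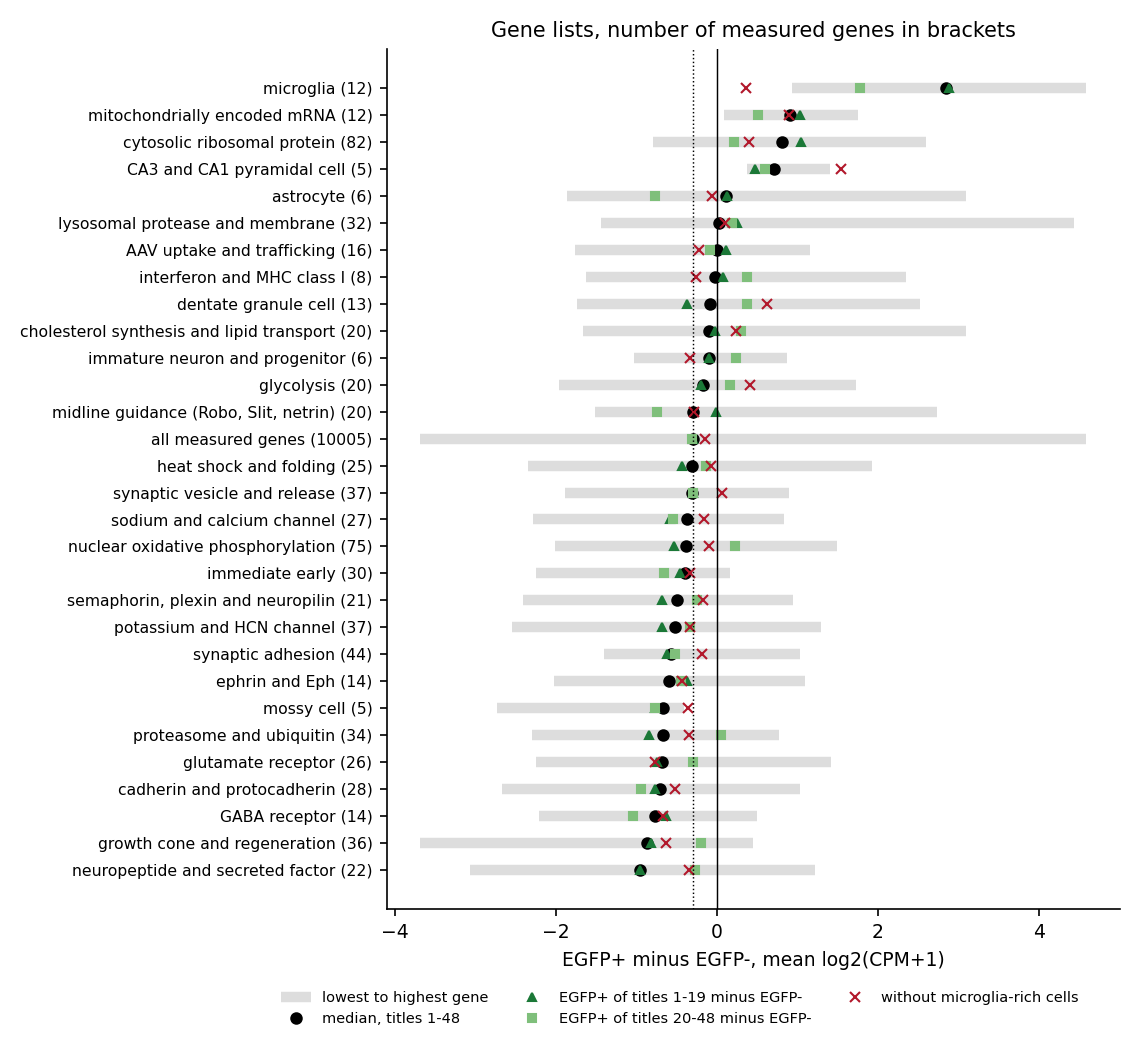
Gene lists with at least 5 measured genes: median EGFP+ minus EGFP- difference of mean log2(CPM+1) for titles 1-48, for EGFP+ cells of titles 1-19, for EGFP+ cells of titles 20-48 and without microglia-rich cells, with a grey bar from the lowest to the highest gene. The dotted line marks the median of all measured genes, -0.30; the microglia median is 2.85, and 0.36 without rich cells.

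A further set of genes differed for titles 1 to 19 and by less than 0.5 for titles 20 to 48, where classes lie side by side. Gltp, which carries glycolipids between membranes, was counted in 11 of the 19 EGFP+ cells of titles 1 to 19 and in 0 of the 5 others. Its difference was 3.47 for titles 1 to 19 and -0.40 for titles 20 to 48. Rpl13 had 2.45 and 0.35, and Cst7, a cystatin of activated microglia, had 2.70 and -0.34. Among lower genes, Atxn2, an RNA-binding protein, had -3.28 for titles 1 to 19 and 0.10 for titles 20 to 48. It stood at 7.75, 7.24, 6.48, 8.20 and 3.50 in the 5 EGFP+ cells of titles 20 to 48, against a median of 3.38 in those of titles 1 to 19 and 6.54 in EGFP- cells. Kcnc1, Mest, an imprinted gene, Fez1, a kinesin adaptor, and Pafah1b2, a subunit of the platelet-activating factor acetylhydrolase that binds the lissencephaly protein, had -3.09, -3.0, -2.72 and -2.69 for titles 1 to 19, and -0.48, 0.48, -0.40 and 0.29 for titles 20 to 48.

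Cells outside titles 1 to 48 allow the same difference to be set beside, in 3 EGFP+ and 15 EGFP- KA cells of a second, higher title series and in 5 EGFP+ and 27 EGFP- saline cells. Robo3 differed by 3.80 after KA there and by 0.42 after saline. Map6 differed by -2.91 and 0.07, Mrgbp by -3.83 and -1.11, and Dazap2 by 4.94 and -1.07. Eif2b1 differed by 1.89 and -1.23, and Aimp1 by 3.46 and 1.47. The microglia median was -1.88 after KA, where 0 of 3 EGFP+ and 7 of 15 EGFP- cells were microglia-rich, and 4.45 after saline, where 4 of 5 EGFP+ and 12 of 27 EGFP- cells were. The ribosomal protein median was -0.76 and 0.40, and that of mitochondrial mRNAs -0.17 and 0.60. Penk differed by 2.36 and -0.17, and Arc by 3.84 and -6.32. With 3 and 5 EGFP+ cells these values carry the content of single cells.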

How the data were processed

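Single-cell libraries were made from patch-pipette samples with Nextera XT, without molecular barcodes or strand information, per the labels' protocols. Trimmomatic, STAR, featureCounts and kallisto on GRCm38 were used, per the submitters' processing notes; versions and roles are not given in the sources used here. The authors deposited read counts per gene for all cells and for the QC-kept cells, and a normalized signal that is scaled per cell by the authors, by a method not stated. The deposited counts were used as whole numbers, without 92 spike-in rows (6 counts in these cells), and the 2 count tables differed in 0 values for these cells. No 2 of the 45 cells held identical values.

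Counts were divided by the cell total (CPM) and averaged as log2(CPM+1), with a pseudocount of 1. Pooled CPM carry exact 95% Poisson intervals and thinned shares Clopper-Pearson 95% intervals. Intervals and floors cover counting error only, since reads without molecular identifiers are not independent molecules. No test was made, since no label ties a cell to its mouse. The functions were tested on simulated data.

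Members, the 34 gene lists and 28 genes of interest were chosen with earlier results of these data known. Named genes were the first 14 in each direction past 2 over all titles and past 1 in both title ranges, the first 8 in each direction that differed for titles 1 to 19 but by less than 0.5 for titles 20 to 48, up to 3 per list and the genes of interest; unnamed gene models were passed over. Other genes given a value are members of the list they stand with, chosen after their values were seen. Coordinates and exon overlaps are from GENCODE M21 (22634 of 22870 names matched). Exons of another gene overlap, among the named genes described, those of Unc5a (Hk3), Dscaml1 (4833428L15Rik), Grn (Fam171a2), Penk (A830012C17Rik), Atxn2 (Sh2b3), Dusp1 (Ergic1), Bdnf (Gm45346), Popdc3 (Gm15934), Armc9 (Gm21972), Ube4a (Gm19121) and Prox1 (Prox1os). The same holds for Gabrb1 (Gabra4), mt-Nd5 (mt-Nd6), mt-Nd2 (mt-Tw), Mest (Copg2), Grik4 (Gm24420), Grm7 (Gm20387), Maml2 (Gm22643), Trf (Gm20425), Ddx39 (Adgre5), Rpl13 (Mir7079, Snord68) and Rpl27a (Snora3). Reads of such overlaps cannot be told apart. Alternatives comprised 16 planned and 2 added after the data were seen. Python 3.11.15, numpy 2.4.6, pandas 2.3.3, R 4.3.3 and edgeR 4.0.16 (TMM factors only) were used.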

Additional observations from a re-analysis of the deposited data

Results flagged for a closer look

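Values of the 5 EGFP+ cells of titles 20 to 48 were examined for 1 cell far from the other 4, in 43 sets of 5 values. In 11 sets the highest value stood apart, where chance alone flags about 1 set in 20. Many genes here are at 0 in most cells, so that any single cell with a count stands apart. Title 45 stood apart in C1qb (11.06), Ctsz (9.20), Eif2b1 (8.34) and Ociad2 (7.81) on the log2(CPM+1) scale, and in the share of microglia-list counts (1.33%, against 0.025 to 0.0766% in the other 4 cells). Title 23, the one of the 5 with the most genes (9318), stood apart in Ddah1 (5.94), Ddx39 (7.25), Popdc3 (3.87) and Secisbp2l (3.32). Title 38 stood apart in Med17 (7.94) and in Mrgbp (0.56), whose value is itself near 0. Without title 45 the differences for titles 20 to 48 of C1qb and Ctsz were -0.32 and -0.33, against 1.89 and 1.51 with it. For the lower genes the high cell lies against the direction: Eif2b1 was -5.54 and Ociad2 -4.40 without title 45, against -3.91 and -2.83 with it.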

How the results depend on the processing

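Counts of genes past 2 depend strongly on the scale and on the cells used. The number at least 2 higher in EGFP+ cells, 67 as reported, was 186 on the authors' normalized signal, 120 after the median of all measured genes was subtracted, 40 with CPM of at least 1 required in 18 cells, 8 with log2(CPM+10), 363 for pooled counts, 434 for medians over cells, 463 for titles 20 to 48, 101 for titles 1 to 19, 145 without microglia-rich cells, 182 without cells under 3000 genes and 394 without both. The number at least 2 lower was, in the settings that moved it, 820 on the authors' signal, 98 after the median was subtracted, 5 with log2(CPM+10), 1332 for medians over cells, 988 for titles 20 to 48, 390 without the 2 cells labelled as failed, 73 without cells under 3000 genes and 106 without both sets. The share of measured genes also at least 1 higher in titles 20 to 48, 0.48% as reported, was 1.27, 0.93, 0.39, 0.070, 2.43, 2.6, 1.20, 1.29 and 3.15% for the authors' signal, the subtracted median, the 18-cell filter, log2(CPM+10), pooled counts, medians, without microglia-rich cells, without cells under 3000 genes and without both. Its lower counterpart, 2.12% as reported, was 7.05, 0.84, 0.050, 10.2, 3.32, 0.69 and 1.05% for the authors' signal, the subtracted median, log2(CPM+10), medians, without failed cells, without cells under 3000 genes and without both. Leaving out 1 of the 5 EGFP+ cells of titles 20 to 48 gave 0.43 to 0.64% higher and 1.89 to 2.85% lower. The other settings, TMM factors, thinning and totals without mitochondrial and ribosomal RNA among them, kept each number of genes within 1.5 times. A kept number need not hold the same genes. As reported, 2.49% of 10005 genes were at least 2 lower. Pooled counts gave a like number but shared only 40 of these genes, and the setting without microglia-rich cells shared 129. The log2(CPM+10) counts are lower by construction, since the larger pseudocount shrinks differences of low genes; the other causes were not tested.

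The microglia median was 0.28 for medians over cells. The medians of the ribosomal protein, mitochondrial mRNA, neuropeptide, midline guidance and granule cell lists moved by less than the SD of the list mean over cells in every setting run. That SD is wide and says little about stability. The microglia median also stayed within it when it went from 2.85 to 0.36 without microglia-rich cells. The ribosomal, mitochondrial and neuropeptide medians kept their sign, with ranges of 0.22 to 1.11, 0.51 to 1.20 and -1.02 to -0.15. Robo3 lay between 1.61 and 5.20 and Map6 between -4.62 and -2.36 in every setting. Of the named genes that differed by at least 2 over all titles, those whose sign turned were Apoe (-0.62 for titles 20 to 48, -0.0043 without microglia-rich cells, -0.19 without these and cells under 3000 genes), Cst7 (-0.34, -0.36 and -0.36 in the same settings) and Trf (-0.25 and -0.12 in the last 2). For titles 20 to 48 these were also Atxn2 (0.099), Gltp (-0.40), Mest (0.48), Pafah1b2 (0.29) and Zfp871 (0.25), which follows from how they were chosen. Cacng3 was 0.12 for pooled counts, Dusp1 0.031 for medians, Grm7 0.35 without microglia-rich cells and cells under 3000 genes, and the median of the oligodendrocyte precursor list 0.018 without a filter. Of 75 named genes that differed by less than 2, 29 had another sign in at least 1 setting, 12 of them for titles 20 to 48. For titles 20 to 48, leaving out 1 EGFP+ cell at a time gave -3.45 to 0.37 for Penk, which turned without title 45 as Cartpt (0.041) and Fos (0.59) did, 3.30 to 5.17 for Robo3 and -3.62 to -1.93 for Map6; C1qb was -0.32 without title 45. Of the 28 genes higher or lower in both title ranges that were named first, 0 turned sign on leaving out 1 of these 5 cells. This largely follows from how they were chosen, since they were ranked by the size of their differences in both title ranges. No paired analysis was possible because replicate numbers only name cells in accession order. Counting intervals are narrow beside the SD over cells.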
